A study of Homo sapiens with 4 samples.

Results

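The HOXB13 locus was described here as the open regions in 175 kb of chromosome 17 around the HOXB13 gene, chr17:46725000-46900000 (hg19). HOXB13 is on the minus strand at 46802127 to 46806111, so its start is at the upper end. Regions were members if their summit lay in this stretch. There were 60, with 31 of the 163735 regions listed after GSK2879552 and 29 of the 194551 listed with vehicle. The stretch was set by position around the gene and not by a measured value, but earlier results of these data were known when it was chosen.

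Open chromatin was measured by ATAC-seq, in which a transposase cuts accessible DNA and adds sequencing adapters. The cells were LNCaP, an androgen-sensitive human prostate cancer line, given GSK2879552 or vehicle. GSK2879552 inhibits the histone demethylase LSD1 (KDM1A). The treatment text, shared by all 4 samples, gives 50 µM for 4 hours in medium with 5% CSS, and the growth text gives 10% fetal serum. Each condition had 2 lanes, labelled as technical replicates, and 1 peak list named by both lanes. There was therefore 1 library per condition, with no replicate check and no test between conditions, and every interval below covers counting error only.

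HOXB13 encodes a homeodomain transcription factor of the posterior HOX group. It is made in the luminal epithelium of the prostate and binds many androgen receptor sites there, together with FOXA1. LSD1 takes methyl groups off histone H3 lysine 4 and works with the CoREST corepressor. In the RefSeq gene order of GRCh38.p14, PRAC1, PRAC2 and MIR3185 lie on the 3′ side of HOXB13, followed by MIR196A1 and HOXB9. TTLL6 and CALCOCO2 follow on its 5′ side. PRAC1 and PRAC2 are named for their expression in prostate, rectum and colon, TTLL6 is a tubulin polyglutamylase and CALCOCO2 an autophagy receptor. Of these genes, the position of HOXB13 alone was used in hg19, so the regions below are placed by their distance from HOXB13.

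Most open regions at the locus were listed in both conditions. A partner in the other list was found for 28 of 31 GSK2879552 regions and 25 of 29 vehicle regions, where 23.5% of GSK2879552 regions and 38.5% of vehicle regions in the series had none. Each of the 22 regions paired 1 to 1 carried fewer tags after GSK2879552, as 83.3% of such pairs in the series did. Among the 81224 pairs of the series within the tag range of the locus, 73696 did. The gene start, the gene body and the sequence on both sides of the gene were open in both libraries. The number of regions was 31 after GSK2879552 and 29 with vehicle, an order that turned to 24 after GSK2879552 and 26 with vehicle at a −log10 q of at least 5. All listed regions covered 6955 bp after GSK2879552 and 9091 bp with vehicle, which is 23.5% less. Over chromosomes 1 to 22, X and Y the covered length was 24.9% less, and the number of regions was 15.8% lower.

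The locus is rich in open regions. Of 16373 stretches of the same length with at least 1 listed region, laid end to end along the chromosomes, 99.5% held fewer GSK2879552 regions and 98.5% fewer vehicle regions. The median stretch held 9 after GSK2879552 and 11 with vehicle. Of 448 stretches on chromosome 17, 98.4% held fewer GSK2879552 regions and 96.9% fewer vehicle regions. Their median was 13 after GSK2879552 and 15 with vehicle. The stretch next to the locus on the 3′ side, towards HOXB9, held 16 regions after GSK2879552 and 22 with vehicle. On the 5′ side the next stretch held 10 after GSK2879552 and 9 with vehicle. At the locus the median summit carried 32 tags after GSK2879552 and 48 with vehicle. Over all regions of each list it carried 20 tags after GSK2879552 and 22 with vehicle. A tag is a read as the peak caller counts it, and the number of tags at each summit was recovered from the deposited values.

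**Figure D1:**
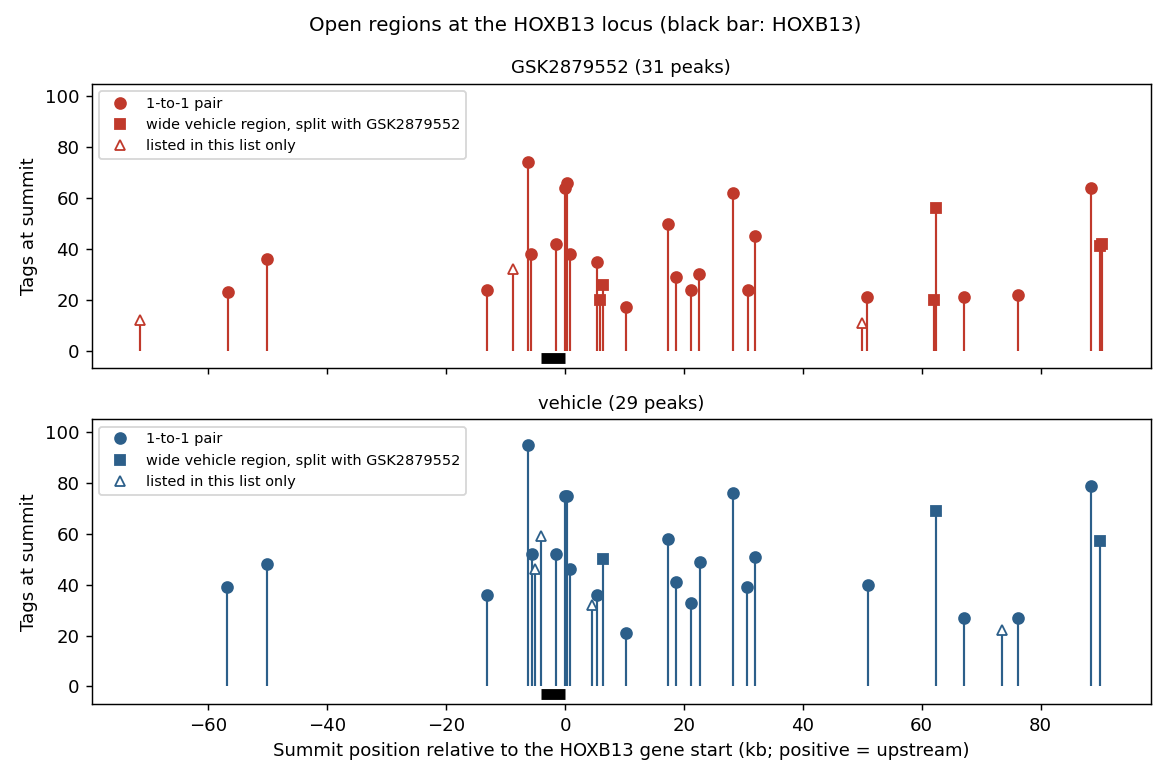
Tags at the summit of each listed region (vertical axis, unscaled) by position relative to the HOXB13 gene start (horizontal axis, kb, positive upstream), after GSK2879552 (upper panel) and with vehicle (lower panel). Filled circles are regions paired with exactly 1 region of the other list, squares are wide vehicle regions and the GSK2879552 regions that divide them, and open triangles are regions in that list only; the highest summit, of 74 tags after GSK2879552 and 95 with vehicle, lies on the 3′ side of the gene.

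The gene start was open in both conditions. The GSK2879552 region chr17:46806024-46806233 had 64 tags at its summit (exact 95% Poisson interval 49.3 to 81.7), and the vehicle region chr17:46806018-46806229 had 75 (59.0 to 94.0). The summit lay 4 bp upstream of the gene start after GSK2879552 and 2 bp upstream with vehicle. Within its own list this region stood above 84.2% of regions by −log10 p after GSK2879552 and above 77.1% with vehicle. Lists of different length give no comparison of these places.

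The GSK2879552 library was the deeper one, so tags were scaled by the genome-wide background of each library, 2.72 tags after GSK2879552 and 2.31 with vehicle, a ratio of 1.18. After that scaling the gene start had a ratio of GSK2879552 to vehicle of 0.726 (exact 95% binomial interval 0.512 to 1.03). The interval includes 1, so a difference at the gene start alone was not detectable at this depth. It also includes 0.683, the summed ratio over the 110134 regions of the series that paired with exactly 1 region of the other list.

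A second region lay just upstream of the gene start. Its summit, 368 bp upstream in the vehicle list, had 66 tags after GSK2879552 and 75 with vehicle, a scaled ratio of 0.749 (0.529 to 1.06). The region was 290 bp wide after GSK2879552 and 373 bp with vehicle. The next, weaker region, with its vehicle summit 812 bp upstream, had 38 tags after GSK2879552 and 46 with vehicle, a scaled ratio of 0.703 (0.445 to 1.10). These 3 neighbouring regions had fewer tags after GSK2879552, and each interval included 1.

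Inside the gene 1 region was listed in both conditions. It lay at chr17:46804415-46804614 after GSK2879552 and at chr17:46804446-46804597 with vehicle. Its summit had 42 tags after GSK2879552 and 52 with vehicle, a scaled ratio of 0.687 (0.446 to 1.05). Whether it lies in an exon or in an intron was not analysed here.

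The strongest summit of the locus lay on the 3′ side of HOXB13, the side of PRAC1 and PRAC2. Whether it lies on or near those genes was not analysed here. The region chr17:46799804-46800088 had 74 tags after GSK2879552, and chr17:46799791-46800113 had 95 with vehicle. Its vehicle summit was 6176 bp from the gene start, past the 3′ end of the gene. The scaled ratio was 0.663 (0.482 to 0.907), with an interval below 1. A smaller region 5632 bp from the gene start had 38 tags after GSK2879552 and 52 with vehicle, with a scaled ratio of 0.622 (0.398 to 0.963). At 13062 bp from the gene start, the region had 24 tags after GSK2879552 and 36 with vehicle, a scaled ratio of 0.567 (0.324 to 0.977).

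Upstream of the gene, 9 paired regions were spread over 5409 to 31889 bp from the start. Summed over them, 316 tags after GSK2879552 against 404 with vehicle gave a scaled ratio of 0.665 (0.572 to 0.773). The strongest of them was chr17:46834212-46834466 after GSK2879552 and chr17:46834207-46834487 with vehicle, 28194 bp upstream. It had 62 tags after GSK2879552 and 76 with vehicle, a scaled ratio of 0.694 (0.488 to 0.983). Within its own list it stood above 93.2% of regions by −log10 p after GSK2879552 and above 93.4% with vehicle. By this measure it ranked higher than the gene start in both lists, though the gene start had 64 and 75 tags. The −log10 p is taken against the background, which was 6.84 after GSK2879552 and 7.53 with vehicle at this region. At the gene start the background was 13.07 after GSK2879552 and 16.46 with vehicle.

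The other upstream regions ranged more widely. At 17263 bp upstream the region had 50 tags after GSK2879552 and 58 with vehicle, a scaled ratio of 0.733 (0.492 to 1.09). At 22643 bp it had 30 tags after GSK2879552 and 49 with vehicle, a scaled ratio of 0.521 (0.319 to 0.837). At 30661 bp the numbers were 24 after GSK2879552 and 39 with vehicle, a scaled ratio of 0.523 (0.301 to 0.893). These last 2 regions lay lower than their neighbour at 31889 bp, which had 45 tags after GSK2879552 and 51 with vehicle and a scaled ratio of 0.751 (0.491 to 1.14), but all 3 intervals overlapped.

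Of the remaining upstream regions, the one at 18704 bp had 29 tags after GSK2879552 and 41 with vehicle, a scaled ratio of 0.602 (0.361 to 0.992). The region at 21190 bp had 24 after GSK2879552 and 33 with vehicle, 0.619 (0.350 to 1.08). The weakest pair, at 10182 bp, had 17 tags after GSK2879552 and 21 with vehicle, 0.689 (0.341 to 1.37). The region at 5409 bp was the closest to equal, with 35 tags after GSK2879552 and 36 with vehicle, and its ratio of 0.827 (0.504 to 1.36) was the highest of the locus.

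**Figure D2:**
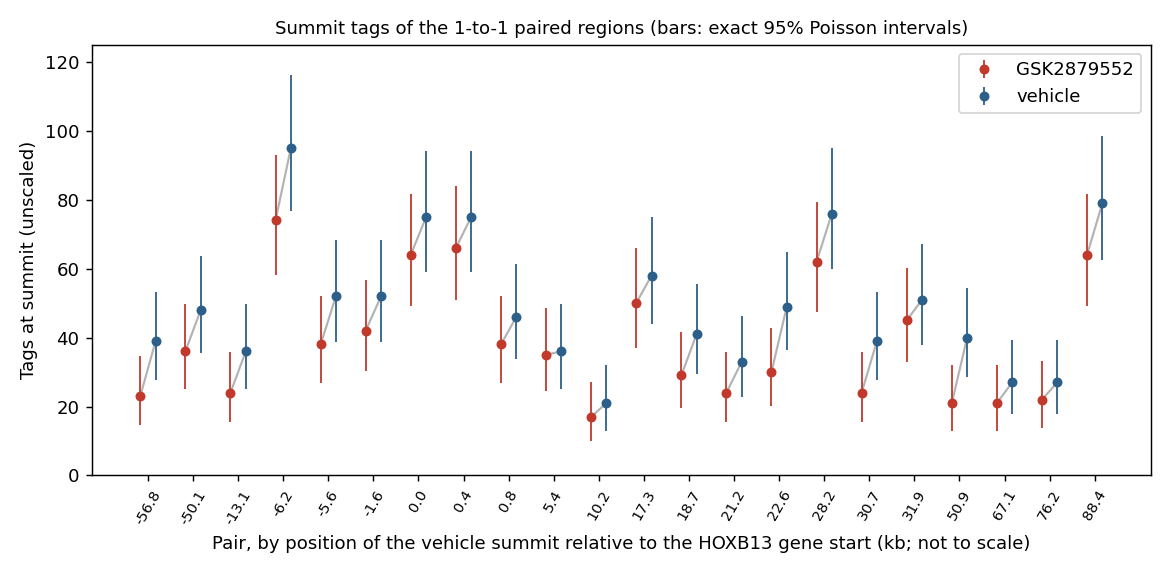
Tags at the summit (vertical axis, unscaled) of the 22 regions of the HOXB13 locus that paired 1 to 1, after GSK2879552 (left point of each pair) and with vehicle (right point), in order of position relative to the gene start (kb); bars are exact 95% Poisson intervals. The GSK2879552 point is the lower one in all 22 pairs, from 17 against 21 tags at the weakest to 74 against 95 at the strongest.

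Farther out, regions lay in a group on either side. Groups were formed by joining summits no more than 15 kb apart, a distance chosen after the positions were seen. On the 3′ side the group held 2 pairs. The region chr17:46749170-46749537 had 23 tags after GSK2879552, and chr17:46749027-46749512 had 39 with vehicle, a scaled ratio of 0.502 (0.286 to 0.861). The other, 50149 bp from the gene start, had 36 tags after GSK2879552 and 48 with vehicle, 0.638 (0.402 to 1.004).

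On the 5′ side, 4 pairs lay 50879 to 88431 bp upstream. The first, chr17:46856767-46857074 after GSK2879552 and chr17:46856821-46857126 with vehicle, had 21 tags after GSK2879552 and 40 with vehicle. Its scaled ratio of 0.447 (0.250 to 0.776) was the lowest of the paired regions at the locus. The strongest, 88431 bp upstream, had 64 tags after GSK2879552 and 79 with vehicle, 0.689 (0.488 to 0.970). The regions at 67143 and 76249 bp had 21 and 22 tags after GSK2879552, against 27 tags each with vehicle, and scaled ratios of 0.662 (0.356 to 1.21) and 0.693 (0.376 to 1.26).

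Taking the 22 pairs as a whole, 849 tags after GSK2879552 against 1095 with vehicle gave a scaled ratio of 0.659 (0.602 to 0.722). Without scaling the ratio was 0.775. The series gave 0.683 (0.682 to 0.684), chromosome 17 gave 0.687 (0.683 to 0.692), and both lay inside the interval of the locus. Next to the locus, the stretch on the 3′ side gave 0.680 (0.607 to 0.761) and that on the 5′ side 0.677 (0.591 to 0.775). Among 3923 stretches of the same length with at least 10 pairs, 27.9% had a lower ratio than the locus, and the median was 0.683. Among the 212 of them on chromosome 17, 18.4% had a lower ratio, and the median was 0.685. The summed ratio of the locus thus sat within the range of the rest of the genome. With 1 library per condition, a difference between the libraries as a whole and an effect of the treatment cannot be told apart.

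All 22 pairs had fewer tags after GSK2879552 before any scaling, where 83.3% of the pairs of the series did. After scaling, 22 of 22 were below 1, where the series had 94.2%. Of 81224 pairs of the series with 38 to 169 tags over both libraries, as at the locus, 73696 had fewer before scaling. After scaling, 79420 of them were below 1, with a summed ratio of 0.667 and a median log2 ratio of -0.60. In 10 of the 22 the exact interval lay below 1, and all 10 were among the 18 pairs that carried 60 or more tags when both libraries were added. In the series 26.8% of all pairs and 42.8% of pairs carrying 60 or more tags had such an interval. No pair of the locus had an interval that left out the ratio of the series, which 0.94% of all pairs did. The median log2 ratio was -0.57 at the locus (lowest -1.16, highest -0.27) and -0.56 over all pairs.

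**Figure D3:**
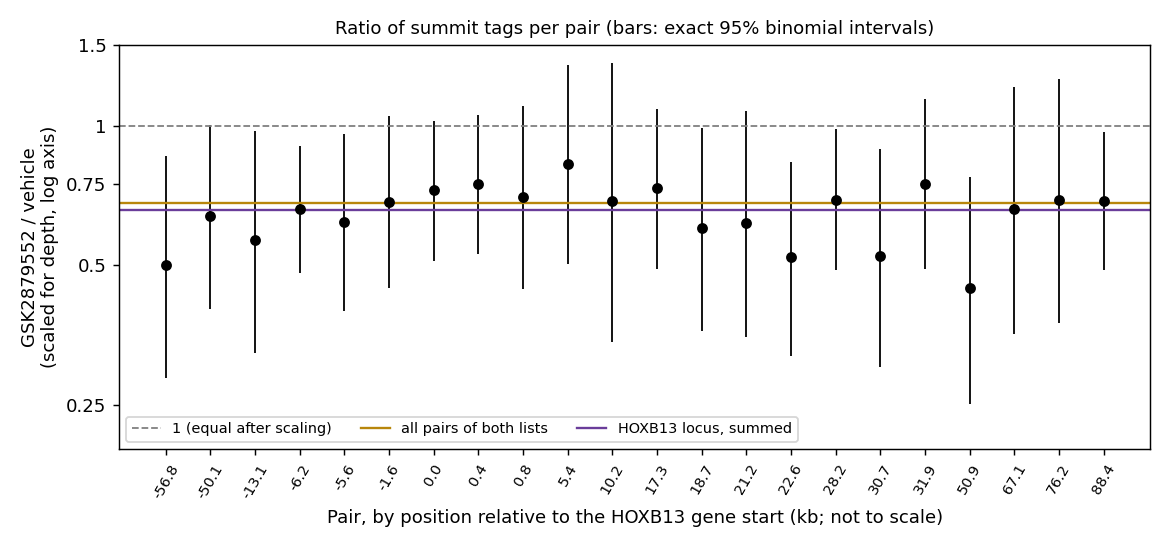
Ratio of summit tags of GSK2879552 to vehicle, scaled for depth (vertical axis, logarithmic), for each of the 22 pairs in order of position relative to the gene start (kb); bars are exact 95% binomial intervals. All points lie below 1, from 0.447 to 0.827, and every interval includes the line of all pairs of the series at 0.683.

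Paired regions kept their place and were mostly narrower. The summits of a pair lay a median of 24 bp apart and at most 80 bp, and 18 of 22 lay within 50 bp. In the series the median was 17 bp, and 83.7% of pairs lay within 50 bp. In 19 of the 22 pairs the region was narrower after GSK2879552, and 81.2% of all pairs were. The median width of the regions listed at the locus was 200 bp after GSK2879552 and 281 bp with vehicle.

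Wide vehicle regions were listed in pieces after GSK2879552 in 3 places. This is 3 of 29 vehicle regions, or 10.3% (exact 95% interval 2.19 to 27.4), where 3.15% of vehicle regions in the series overlapped 2 or more GSK2879552 regions, a share inside that interval. No GSK2879552 region at the locus overlapped 2 or more vehicle regions, where 0.665% of the series did. The first was the vehicle region chr17:46811894-46812652, which was 759 bp wide with 50 tags. After GSK2879552 it was represented by 2 regions with 20 and 26 tags, 377 bp apart. The scaled ratio of the highest summits was 0.442 (0.264 to 0.724).

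The second divided region was chr17:46868073-46868691 with vehicle, with 69 tags, 62468 bp upstream of the gene start. After GSK2879552 its pieces had 20 and 56 tags and lay 201 bp apart, and the scaled ratio of the highest summits was 0.690 (0.476 to 0.997). The last was chr17:46895995-46896681 with vehicle, with 57 tags. Its pieces after GSK2879552 had 41 and 42 tags, 173 bp apart, with a scaled ratio of 0.627 (0.410 to 0.950). Counted as whole regions, these 3 places give 3 fewer GSK2879552 regions, which leaves 28 after GSK2879552 against 29 with vehicle. Among 503 stretches with 25 to 33 vehicle regions, 18.7% held at least as many GSK2879552 regions as vehicle regions.

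Regions in 1 list only were 3 of 31 after GSK2879552 and 4 of 29 with vehicle. The share with a partner was 90.3% after GSK2879552 (exact 95% interval 74.2 to 98.0) and 86.2% with vehicle (68.3 to 96.1). In the series the share with a partner was 76.5% for GSK2879552 regions and 61.5% for vehicle regions. Both shares of the locus were higher than those of the series. The intervals treat neighbouring regions of 1 library as independent draws, so they are no test of the locus against the series. The median summit of the locus also had more tags than that of the list in both conditions, and the part of this in the share was not tested.

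Of the vehicle-only regions, 2 lay together at the 3′ end of HOXB13. The region chr17:46801975-46802097 had 59 tags (44.9 to 76.1) and ended just short of the gene. The nearest GSK2879552 region was 1464 bp away. Scaled to the deeper GSK2879552 library, that would be 69.4 tags. Of the 73823 vehicle-only regions of the series, 47 had as many tags. By its −log10 q of 8.40 it was not extreme, since 16.5% of vehicle-only regions reached that value. Its local background, 22.13 tags, was the highest at the locus.

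Next to it, chr17:46800967-46801079 had 46 tags with vehicle over a background of 19.51. The tags of the GSK2879552 library at both places are not given by its list. Listed GSK2879552 regions with a background within 0.5 of the 14.09 found at the nearest GSK2879552 summit had at least 29 tags. The background of that library at these 2 places is not known. The other vehicle-only regions were chr17:46810455-46810595, with 32 tags, and chr17:46879575-46879865, with 22 tags.

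Of the GSK2879552-only regions, 1 had 32 tags and the others 11 and 12. The region chr17:46797196-46797350, on the 3′ side, had 32 tags over a background of 10.76 and a −log10 q of 5.10. Listed vehicle regions with a background within 0.5 of the 18.23 found at the nearest vehicle summit, 2662 bp away, had at least 36 tags. The background of the vehicle library at this place is not known. The remaining GSK2879552-only regions had 12 tags, at chr17:46734640-46734739, and 11 tags, at chr17:46856075-46856234. Both stood near the genome-wide background of 2.72.

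The densest part of the locus was HOXB13 itself with its 3′ side. The background of a region, where above the genome-wide one, was read as the tags in the 10 kb around its summit, divided by 100. It thus gives a further, deeper count. With vehicle it was 2213 tags in 10 kb at the 3′ end of the gene, 9.58 times the genome-wide level. After GSK2879552 the highest value was 1521 tags, at the region inside the gene, 5.60 times that level. At the gene start there were 1307 tags after GSK2879552 and 1646 with vehicle, which is 4.81 times the genome-wide level after GSK2879552 and 7.13 times with vehicle. Of all regions in the series, 1.55% after GSK2879552 and 0.785% with vehicle had a background as high as that of the gene start. At 56818 bp from the gene start on the 3′ side, there were 331 tags after GSK2879552 and 281 with vehicle, 1.22 times the genome-wide level in both libraries.

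**Figure D4:**
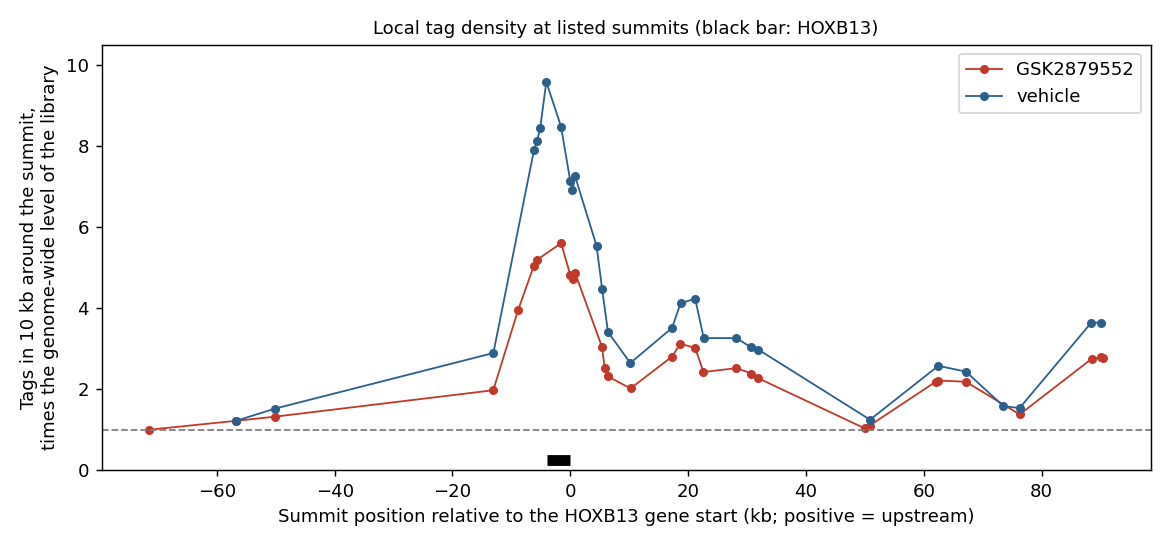
Tags in the 10 kb around each listed summit, as a multiple of the genome-wide level of the same library (vertical axis), by position relative to the HOXB13 gene start (horizontal axis, kb, positive upstream), after GSK2879552 (red) and with vehicle (blue); lines only join neighbouring summits. Both libraries peak over HOXB13 and its 3′ side. The highest value after GSK2879552 is 5.60, at the region inside the gene, where vehicle has 8.48. With vehicle the highest is 9.58, at a vehicle-only region at the 3′ end of the gene. The far regions on the 3′ side lie at 1 to 1.52, and those on the 5′ side reach 2.78 after GSK2879552 and 3.64 with vehicle. The value of 1, at 1 GSK2879552 region, is the genome-wide level itself and not a 10 kb count.

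Around HOXB13 the 10 kb counts were lower after GSK2879552 by about as much as the summits, and less so farther out. At the gene start the scaled ratio of 10 kb tags was 0.675 (0.628 to 0.727), with an interval below 1 that the summit alone did not have. Over the 6 pairs with at least 2000 tags in 10 kb when both lists were added, a level chosen after the values were seen, the ratio was 0.639 to 0.684. The other 16 pairs ranged between 0.681 and 1.002. The lower end of that range was at 5409 bp upstream, with 0.681 (0.621 to 0.747). The upper end was at the far region on the 3′ side, 1.002 (0.852 to 1.18), where the summit ratio was 0.502. Neighbouring windows share tags, so these pairs are not independent, and each window includes the tags of its own regions.

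The scaled 10 kb ratio was below 1 in 21 of the 22 pairs, where 76.5% of 66547 pairs of the series above the genome-wide background were. Without scaling, 17 of the 22 had fewer 10 kb tags after GSK2879552, and the other 5, all at least 50 kb from the gene start, had more. Its median was 0.756 at the locus and 0.892 in the series. Dense places had lower ratios in the series too. The 745 pairs with 2880 to 3479 tags in 10 kb over both lists, the range of the 6 pairs at HOXB13, had a median of 0.769 (interquartile range 0.724 to 0.827). Of them, 70, or 9.40%, were at or below 0.684, the highest ratio of the 6 pairs, which are among them.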

How the data were processed

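Per the labels, each condition has 2 lanes and 1 narrowPeak list in hg19. Per the submitters' processing notes, BWA 0.7.2, SAMtools 0.1.18 and MACS2 2.1.2 were used, but what each did is not recorded there. For trimming, mapping filters, removal of duplicates, read shifts and total tags, the sources used here give no settings. The authors deposited per peak a score, a fold, a −log10 p, a −log10 q and a summit offset. The deposited score repeats the −log10 q, multiplied by 10 and cut to a whole number. Each fold deposited by the authors divides summit tags plus 1 by background plus 1. The smallest deposited −log10 q was 1.30 after GSK2879552 and 1.31 with vehicle.

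Fold and −log10 p, read as a Poisson tail beyond the observed number, gave whole tags within 0.001 in 100% of rows of both lists, and the background. Backgrounds above the genome-wide one were multiples of 0.01, the step that tags of 100 bp in 10 kb give, and were read as tags in 10 kb. The recovery was run on data simulated with the same formulas, which checks the code and not whether the deposited values follow those formulas. Comparisons used regions of chromosomes 1 to 22, X and Y, shared at 1 bp of overlap, and paired where each overlapped exactly 1 of the other list. Shares and ratios have exact binomial intervals and tags exact Poisson intervals, over counting error only. Those of shares treat the regions of a list as independent. The named regions are every pair and every region in 1 list only. The stretch, members and tests were chosen with earlier results of these data known. Sequences and motifs were not analysed here. Python 3.11.15, NumPy 2.4.6, pandas 2.3.3, SciPy 1.17.1 and Matplotlib 3.10.9 were used.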

Additional observations from a re-analysis of the deposited data

How the results depend on the processing

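No paired analysis was possible because each condition had 1 list and its lanes are technical replicates, and for the same reason no replicate could be left out. Without scaling for depth, the summed ratio of the pairs, 0.659, was 0.775, the median log2 ratio, -0.57, was -0.33, and the median ratio of 10 kb tags, 0.756, was 0.889, all still lower after GSK2879552. The share of GSK2879552 regions with a partner, 90.3%, was 67.7% with a reciprocal overlap of 50%, which drops regions that differ in width. The number of GSK2879552 regions, 31, was 20 within 50 kb of the gene start, where vehicle also had 20, so the order seen over 175 kb was not kept; at a −log10 q of at least 5 it turned, with 24 after GSK2879552 and 26 with vehicle. The other alternatives run (lists of equal length, a −log10 q of 5 or more, summits within 250 bp, any overlap of the stretch, subtracted background, at least 60 tags, a correction for 1 tag per position and strand, and, added after the data were seen, divided regions joined) kept counts within 1.5 times and other values within their intervals, with summed ratios of 0.636 to 0.659; within 50 kb of the gene start the summed ratio was 0.674. At 17 to 95 tags per summit, the interval of a single pair spans differences as large as that of the whole series from 1.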
